A study of Mus musculus with 55 samples.

Results

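The 10 perineuronal net and lectican matrix genes examined were the lecticans Acan, Bcan, Ncan and Vcan, the link proteins Hapln1, Hapln2 and Hapln4, the tenascins Tnr and Tnc, and the receptor phosphatase Ptprz1. The rule that chose them is a list of names and uses no measured value, although the list was drawn up with earlier results of these data known. All 10 were found among the 45318 gene identifiers of the count tables and passed the filter on low counts. Stranded total RNA from the ventral dentate gyrus, dissected as punches, was sequenced for 54 male C57/BL6J mice, with 1 mouse per sample. From weaning the mice were raised in standard housing (SH) or in an enriched environment (EE) with larger groups, tunnels, changing objects and running wheels, so that group size and running wheels go together with EE. As young adults they were left unstressed (control) or exposed to chronic social defeat stress (CSDS) by CD1 aggressors, after which their social interaction ratio classified them as resilient (RES) or susceptible (SUS). The SH mice numbered 10 control, 7 RES and 10 SUS, and each of the 3 EE groups held 9 mice. RES and SUS mice differed by an outcome of the same defeat and were not assigned at random. The p-values measure the spread between single mice, and the labels do not name litters or cages.

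Lecticans are chondroitin sulfate proteoglycans that bind hyaluronan at one end and tenascin-R at the other. Link proteins lock the lectican to the hyaluronan chain, and the assembly forms the perineuronal net, a dense coat best known around parvalbumin interneurons and, in the mouse hippocampus, around pyramidal cells of CA2. Aggrecan is regarded as the core lectican of the net, Hapln2 is known from the matrix of nodes of Ranvier in myelinated axons, and versican, tenascin-C and Ptprz1 are better known from the diffuse matrix and from glia.

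The members lie on 7 chromosomes (positions in GRCm38), and 3 pairs of them are direct neighbours with no other annotated gene in between. Bcan (ENSMUSG00000004892, chromosome 3, 87987531 to 88000230) and Hapln2 (ENSMUSG00000004894, chromosome 3, 88021750 to 88027583) are on the same strand and 21519 bases apart. Ncan (ENSMUSG00000002341, chromosome 8, 70093085 to 70120873) and Hapln4 (ENSMUSG00000007594, chromosome 8, 70083457 to 70090862) point tail to tail, 2222 bases apart. Vcan (ENSMUSG00000021614, chromosome 13, 89655312 to 89742509) and Hapln1 (ENSMUSG00000021613, chromosome 13, 89539796 to 89611652) point tail to tail, 43659 bases apart. Acan (ENSMUSG00000030607, chromosome 7, 79053483 to 79115099) ends 2 bases from Hapln3, a link protein that is not among the 10. Tnr (ENSMUSG00000015829) lies on chromosome 1 at 159523769 to 159931729, Tnc (ENSMUSG00000028364) on chromosome 4 at 63959785 to 64047015, and Ptprz1 (ENSMUSG00000068748) on chromosome 6 at 22875502 to 23052916. All 10 are protein coding. Counted on the opposite strand were between 0.054% (Ncan) and 1.18% (Hapln2) of each member's read pairs over both strands.

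RefSeq start sites gave a promoter window for 9 of the 10 members, and the 250 bases before the start are shown for 4 of them, because Bcan with Ncan and Vcan with Hapln1 are lectican genes and partners whose levels varied together among mice. They are written 5′ to 3′ on the strand of the gene (GRCm38.p6, chr3:88000357-88000606 for Bcan, chr8:70120845-70121094 for Ncan and chr13:89742513-89742762 for Vcan on the minus strand, and chr13:89540386-89540635 for Hapln1 on the plus strand), with the GC box GGGCGG or its reverse complement in capitals.
Bcan: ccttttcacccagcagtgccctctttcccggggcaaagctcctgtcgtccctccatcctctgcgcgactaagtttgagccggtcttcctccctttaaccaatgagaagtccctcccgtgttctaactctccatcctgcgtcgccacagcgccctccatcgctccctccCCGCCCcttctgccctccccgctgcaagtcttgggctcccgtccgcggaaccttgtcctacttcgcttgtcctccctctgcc
Ncan: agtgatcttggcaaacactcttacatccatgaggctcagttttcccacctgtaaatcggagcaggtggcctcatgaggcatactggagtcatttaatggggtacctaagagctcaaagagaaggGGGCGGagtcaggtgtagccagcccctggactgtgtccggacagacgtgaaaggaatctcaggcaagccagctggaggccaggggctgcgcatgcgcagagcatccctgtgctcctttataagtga
Vcan: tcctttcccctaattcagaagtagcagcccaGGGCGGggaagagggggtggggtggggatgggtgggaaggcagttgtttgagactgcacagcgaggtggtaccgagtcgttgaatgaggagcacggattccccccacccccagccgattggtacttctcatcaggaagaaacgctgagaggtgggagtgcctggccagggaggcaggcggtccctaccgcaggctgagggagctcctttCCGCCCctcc
Hapln1: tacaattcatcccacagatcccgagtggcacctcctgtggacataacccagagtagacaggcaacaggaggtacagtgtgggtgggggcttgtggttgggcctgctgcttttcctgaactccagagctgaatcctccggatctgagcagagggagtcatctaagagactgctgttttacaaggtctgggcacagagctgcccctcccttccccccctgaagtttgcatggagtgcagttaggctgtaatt
The RefSeq starts of all 4 differ from the gene starts given above. The Bcan window ends at 88000357, before the start of its gene at 88000230, and the Vcan window ends at 89742513, just before 89742509. The Hapln1 window lies inside the annotated gene, which starts at 89539796, and the Ncan window overlaps the start of its gene at 70120873. The GC box was searched on both strands and occurs in 32.7% of 32851 mouse promoter windows of this length. Bcan and Ncan held 1 GC box each, Vcan held 2 and Hapln1 held 0, and whether either pair shares promoter features was not tested. Of these 4, Ncan alone held a match to TATAAA, the classical core promoter box, which was also searched on both strands and found in 12.4% of the windows, and that match lies on the strand opposite to the gene. GC content was 62.0% for Bcan, 54.4% for Ncan, 62.4% for Vcan and 54.4% for Hapln1, beside a median of 52.4% over all windows. Of the windows not shown, Acan (74.4% GC) held 3 GC boxes, Ptprz1 (71.6%) held 2, and Hapln2 and Tnr held 0. Tnc had 2 overlapping windows (44.8% and 51.2% GC), each with 1 GC box and 1 match to TATAAA. Hapln4 was the member without a window. These matches describe letters in the windows and were not tested as binding sites.

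The libraries held a median of 21552884 counted read pairs per mouse (range 16760009 to 45872357, the highest from EE control mouse 9, whose 2 runs were summed). The depth differed widely between members, from a mean of 90.4 read pairs per mouse for Acan (lowest 50) and 116.3 for Hapln2 (lowest 65) to 5498.4 for Ptprz1. The dentate granule cell markers were all measured, with a summed level of 605.5 to 1267 CPM (the read pairs of a gene relative to the TMM-scaled library). Genes of the lists for CA3 pyramidal cells (665.2 to 1277 CPM), oligodendrocytes (1073 to 2596 CPM) and thalamus (112.5 to 693.5 CPM) were present as well. The CA3 list (Bok, Grik4, Iyd, Cpne4 and Chgb) includes genes that other neurons also express, so its sum does not by itself show CA3 tissue. Choroid plexus genes summed to over 100 CPM in 6 of the 54 mice, which are 1 SH control, 2 SH SUS, 1 EE control, 1 EE RES and 1 EE SUS mouse, and none was an SH RES mouse. In such bulk samples, fewer cells of a type and less RNA per cell cannot be told apart.

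Compared per exon length, the hyaluronan-binding lectican brevican (Bcan) had the highest level of the family and aggrecan the lowest. Exon length was the union of all annotated exons of a gene (14462 bases for Vcan and 14245 for Ptprz1). A gene whose forms in this tissue leave out long exons would thus come out too low. Which forms were present was not examined, so the order and the shares below hold on this scale only. The mean levels in CPM per kb of exon were 38.5 ± 3.41 for Bcan (SD, n = 54), 27.4 ± 2.67 for neurocan (Ncan), 17.6 ± 1.38 for Ptprz1, 15.2 ± 1.02 for Tnr, 8.77 ± 2.23 for Hapln4, 5.81 ± 0.594 for Hapln1, 2.54 ± 0.191 for versican (Vcan), 2.42 ± 0.415 for Tnc, 2.23 ± 0.639 for Hapln2 and 0.551 ± 0.108 for Acan. Bcan was above Ncan, Ncan above Ptprz1, Hapln1 above Vcan and Hapln2 above Acan in 54 of 54 mice. Ptprz1 was above Tnr in 51, Tnr above Hapln4 in 53, and Hapln4 above Hapln1 in 49. Vcan, Tnc and Hapln2 were not separated beyond their spread, since Vcan was above Tnc, and Tnc above Hapln2, in 35 of 54 mice each. Acan was higher than only 16.6% of the genes tested on this scale, whereas Bcan was higher than 94.2%.

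**Figure D1:**
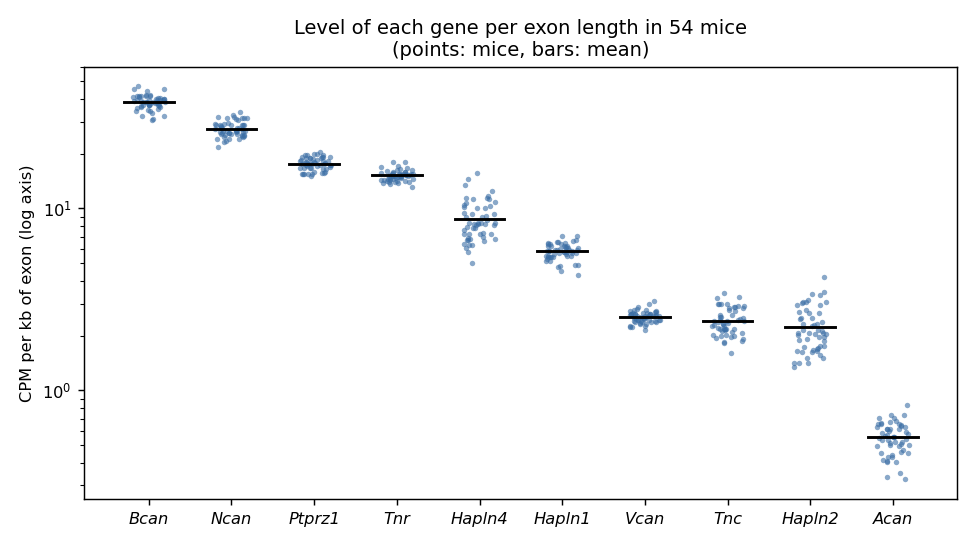
Level of each of the 10 genes per exon length (CPM per kb of exon, log axis) in 54 mice, with 1 point per mouse and a bar at the mean. The means fall from 38.5 for Bcan to 0.551 for Acan, with the points of Vcan, Tnc and Hapln2 overlapping.

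Within families the composition was uneven on this scale, with the same limit of exon length. Of the summed lectican level per exon length, Bcan made up 55.8% (range over mice 51.3% to 59.3%), Ncan 39.7% (36.2% to 43.8%), Vcan 3.70% (2.71% to 4.54%) and Acan 0.798% (0.463% to 1.14%). Of the 3 link proteins, Hapln4 made up 51.5% (38.5% to 63.3%), Hapln1 35.3% (22.6% to 48.9%) and Hapln2 13.1% (8.91% to 19.7%). Tnr made up 86.3% of the 2 tenascins (82.2% to 90.7%). The order of the 4 lecticans by share was thus the same in every mouse, while the shares of Hapln4 and Hapln1 overlapped. Among mice of the same group the coefficient of variation was smallest for Tnr (6.67%), Ptprz1 (7.40%), Vcan (7.44%) and Bcan (8.88%), was 10.1% for Ncan with Hapln1 just below it, and reached 17.6% for Tnc, 19.5% for Acan, 23.0% for Hapln4 and 27.6% for Hapln2.

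Whether housing moved these genes was asked with the mean of the EE groups against the mean of the SH groups. No member passed an adjusted p of 0.05 in the quasi-likelihood test of edgeR, in a comparison in which 2.42% of the 18283 genes tested passed. By the study criterion, an unadjusted limma p below 0.05 with a fold change above 1.3, 0 members and 0.613% of genes passed. At an unadjusted edgeR p of 0.05, 4 members passed, beside 17.6% of all genes, with Hapln4, Hapln2 and Acan above and Ptprz1 below SH. The median log2 fold change of the 10 members was -0.02, beside 0.00 for all genes. The 95% intervals of 8 of the 10 members lay within a 1.3-fold difference in either direction, with Hapln2 and Hapln4 as the exceptions.

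Hapln4, which encodes a brain link protein found with brevican in perineuronal nets, had the largest difference. It measured 22.6, 28.4 and 44.6 CPM (lowest, median and highest) in SH control, 19.7, 30.9 and 32.8 CPM in SH RES, and 23.9, 32.5 and 43.9 CPM in SH SUS mice. In EE it measured 24.6, 30.5 and 44.7 CPM in control, 26.7, 35.7 and 61.3 CPM in RES, and 26.5, 40.8 and 52.5 CPM in SUS mice. The defeated EE mice reached the highest values, but the groups overlapped, with 6 of 27 EE mice above the highest SH mouse and 19 of 27 above the SH median. The EE mean was 1.21 times the SH mean (95% interval 1.08 to 1.36, edgeR adjusted p = 0.0579). This result lay near the threshold. DESeq2 (adjusted p = 0.0457) and limma with sample weights (adjusted p = 0.0368) put it past the threshold, and so did leaving out any 1 of 13 mice, namely SH control 3 or 10, SH SUS 1 or 3, EE control 3, 7 or 8, EE RES 4, 5, 7 or 9, or EE SUS 7 or 9, with an adjusted p of 0.0313 to 0.103 over all 54 leave-outs. With the oligodendrocyte marker score as a covariate the log2 difference was 0.13 (adjusted p = 0.49).

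Hapln2, the link protein of nodes of Ranvier, had medians in SH of 4.93 CPM in control, 4.16 CPM in RES and 4.46 CPM in SUS mice and of 4.83, 5.45 and 7.02 CPM in the same EE groups. Single mice ranged from 3.18 to 9.95 CPM in SH and from 3.33 to 8.19 CPM in EE, so the housings overlapped throughout, although 20 of 27 EE mice were above the SH median. The EE mean was 1.16 times the SH mean (1.01 to 1.34, adjusted p = 0.253). With the oligodendrocyte score as a covariate the log2 difference was -0.02. The oligodendrocyte markers themselves summed to 1073, 1401 and 2596 CPM (lowest, median and highest) in SH and 1099, 1716 and 2384 CPM in EE, with 2 of 10 markers higher in EE, 0 lower and a median log2 difference of 0.26. Their part in the values of Hapln2 and Hapln4 was not tested beyond this covariate. The dentate granule cell markers had a median log2 difference of -0.16, with 2 of 8 lower and 0 higher in EE. The parvalbumin interneuron list held Pvalb, Kcnc1, Kcns3, Tac1 and Erbb4, with Gad1, Gad2 and Slc32a1, which GABA neurons share at large. None of its 8 genes passed.

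Acan, the lectican that defines most nets, was the least expressed member. Its medians in SH were 3.95 CPM in control, 3.82 CPM in RES and 3.77 CPM in SUS mice, and in the EE groups 4.24, 4.57 and 4.57 CPM, with single mice between 2.42 and 6.18 CPM in SH and between 3.02 and 5.46 CPM in EE. The highest and the lowest mouse were thus both in SH. The EE mean was 1.12 times the SH mean (1.01 to 1.25, adjusted p = 0.237).

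Ptprz1, a receptor phosphatase whose shed and membrane forms carry chondroitin sulfate, was the only member with an unadjusted p below 0.05 that was lower in EE. In SH its medians were 262 CPM in control, 269 CPM in RES and 248 CPM in SUS mice, and they were 256, 241 and 237 CPM in the EE groups. The ranges were 220 to 291 CPM in SH and 216 to 284 CPM in EE, almost the same span. The EE mean was 0.956 times the SH mean (0.919 to 0.994, adjusted p = 0.203).

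The other 6 members differed little by housing. Per housing, the median of Bcan was 157 CPM in SH and 154 CPM in EE, that of Ncan 197 and 191 CPM, and that of Vcan 37.2 and 36.0 CPM. The fold differences were 0.984 (0.939 to 1.03) for Bcan, 0.985 (0.934 to 1.04) for Ncan and 0.980 (0.941 to 1.02) for Vcan, so none of these 3 intervals reached a 1.3-fold difference. Hapln1, the link protein expressed widely in brain, had medians of 35.0 CPM in SH and 33.4 CPM in EE (0.959, 0.908 to 1.01). Tnr, the net tenascin that cross-links lecticans, had medians of 196 and 195 CPM (0.994, 0.959 to 1.03). Tnc, its relative of the neurogenic and glial matrix, had medians of 18.9 and 17.6 CPM (0.949, 0.865 to 1.04). None of these 6 reached an unadjusted p of 0.05.

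**Figure D2:**
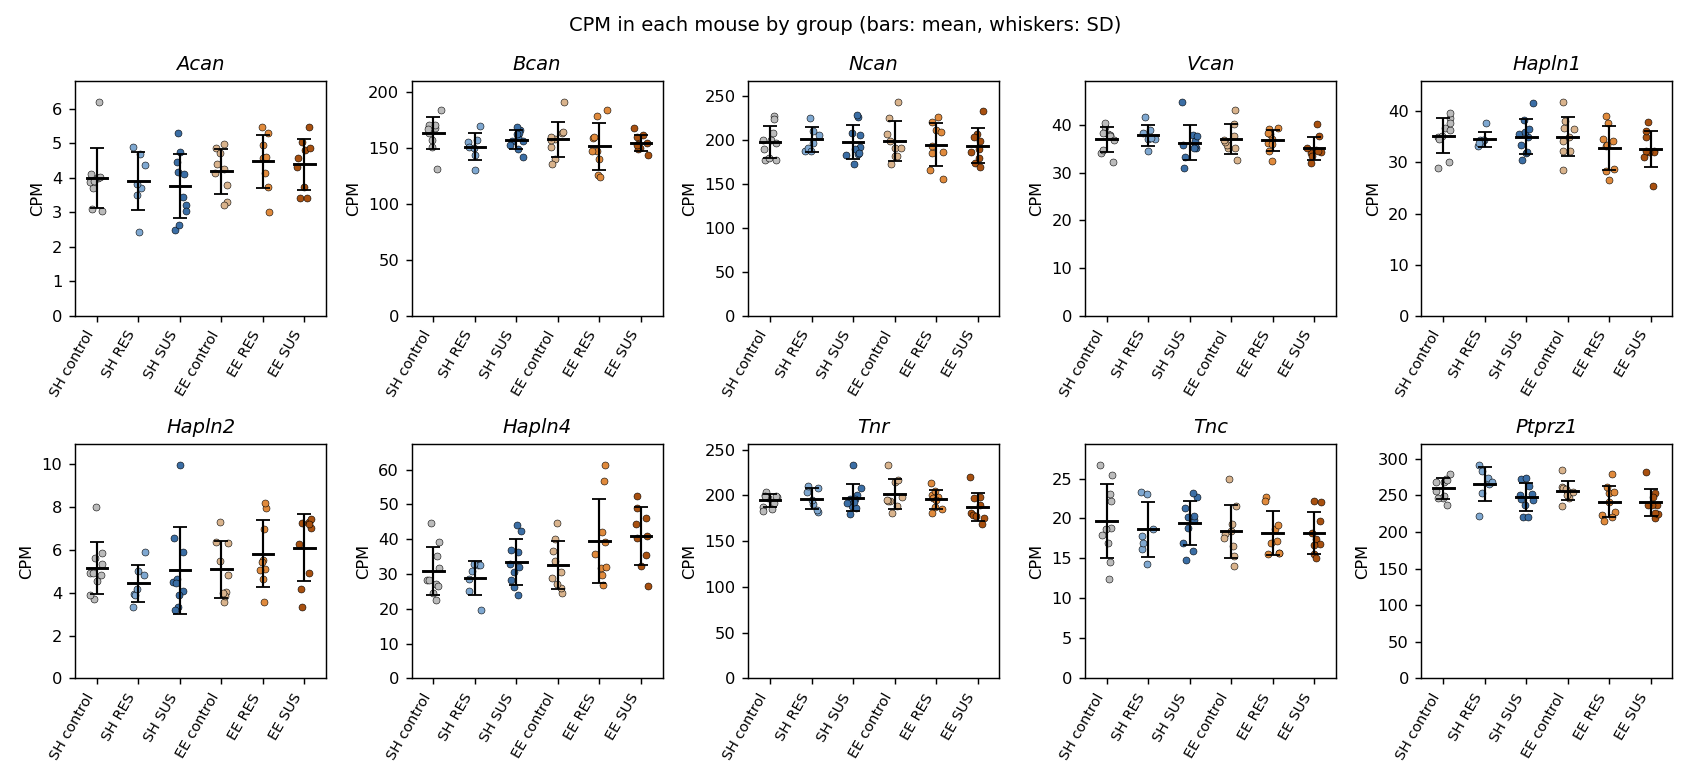
CPM of each of the 10 genes in each mouse (1 point per mouse), by the 6 housing and phenotype groups, with a bar at the group mean and whiskers of 1 SD. The vertical axes start at 0 and differ between genes. All groups overlap, and the EE RES and EE SUS means of Hapln4 (39.5 and 40.8 CPM) are the highest of its 6 groups.

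Within phenotypes, the housing difference was looked at separately in control, RES and SUS mice. In control mice no member passed an adjusted p (0.00547% of genes did), the study criterion (1.12%) or an unadjusted p of 0.05 (5.02%), and all 10 intervals lay within a 1.3-fold difference. In RES mice no member passed the adjusted p (0.273% of genes), but Hapln4, Hapln2 and Ptprz1 passed the unadjusted p (16.0% of genes). Hapln4 was 1.37 times as high in EE RES as in SH RES mice (1.11 to 1.70, edgeR adjusted p = 0.131), with 5 of 9 EE mice above the highest of 7 SH mice. It was the only member past the study criterion, which 3.24% of genes met. Hapln2 was 1.32 times as high (1.01 to 1.72, adjusted p = 0.294), with 8 of 9 EE mice above the SH median. With the oligodendrocyte score as a covariate, the log2 difference in RES mice was 0.22 in place of 0.45 for Hapln4 and 0.04 in place of 0.40 for Hapln2, and with the choroid plexus and thalamus scores it was 0.26 for Hapln2. Ptprz1 was 0.911 times as high (0.847 to 0.979, adjusted p = 0.177). In SUS mice 0 members passed the adjusted p (0.00547% of genes), and 1, Hapln4, passed the unadjusted p (7.36% of genes; 0 members and 1.56% of genes met the study criterion), at 1.22 times the SH value (1.01 to 1.48, adjusted p = 0.67). In SUS mice the log2 difference of Hapln4, 0.29, was 0.09 with the oligodendrocyte score and 0.18 with the choroid plexus and thalamus scores. That of Hapln2, 0.27, was -0.02 and 0.09 with these covariates and 0.51 (adjusted p = 0.249) without the 6 mice with high choroid plexus genes. Whether the housing difference of Hapln4 itself differed between defeated and control mice was tested by the defeat by housing interaction, which gave a fold of 1.22 (0.961 to 1.56, adjusted p = 0.768), a log2 value of 0.29 that was 0.09 with the oligodendrocyte score and 0.12 with the choroid plexus and thalamus scores.

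CSDS itself left the members close to control. Over both housings, defeated against control mice gave 0 members at an adjusted p (0.0438% of genes), 0 by the study criterion (0.481%) and 0 at an unadjusted p of 0.05 (4.81%), and all 10 intervals lay within a 1.3-fold difference. The fold values ran from 0.958 for Bcan (0.912 to 1.01) to 1.11 for Hapln4 (0.986 to 1.26). In SH, neither SUS against control (0.0328% of genes at the adjusted p, 2.78% at the unadjusted p and 0.93% by the study criterion) nor RES against control (0.0%, 3.51% and 1.21%) gave a member at any of these thresholds. The largest of these differences was in Hapln2, at 0.856 times the control value in SH RES mice by the fitted log2 difference of -0.22 ± 0.19 (SE), which was 0.03 with the oligodendrocyte score as a covariate and -0.14 with the choroid plexus and thalamus scores. In EE, SUS against control gave 0 members at the adjusted p (0.0% of genes) and 2 at the unadjusted p (7.9% of genes), with 0 by the study criterion (1.94%). Hapln4 was 1.25 times as high in EE SUS as in EE control mice (1.03 to 1.52, adjusted p = 0.571), with 8 of 9 SUS mice above the control median, and its log2 difference of 0.32 was 0.19 with the oligodendrocyte score and 0.12 with the choroid plexus and thalamus scores. Tnr was 0.929 times as high (0.874 to 0.988, adjusted p = 0.55). Its levels were 181, 195 and 233 CPM (lowest, median and highest) in EE control and 169, 181 and 220 CPM in EE SUS mice, and 5 of 9 SUS mice were below the lowest control mouse. RES against control in EE gave 0 members at the adjusted p (0.0%) and 0 at the unadjusted p (7.91%) or by the study criterion (1.17%). These comparisons share EE mice with each other and with the housing comparisons, so these values are not independent of each other.

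Between SUS and RES mice 0 members passed the adjusted p, the unadjusted p or the study criterion. Over both housings the background was 0.0% at the adjusted p, 3.67% at the unadjusted p and 0.454% by the study criterion, and the fold values ran from 0.957 for Vcan (0.910 to 1.01) to 1.09 for Hapln2 (0.914 to 1.31) and Hapln4 (0.946 to 1.26). The interval of Hapln2 alone passed a 1.3-fold difference, and its log2 difference of 0.13 was -0.05 with the oligodendrocyte score, -0.075 with the choroid plexus and thalamus scores and 0.02 without the 6 mice with high choroid plexus genes. In SH alone (0.0%, 4.88% and 1.14% of genes) and EE alone (0.0%, 3.52% and 1.1%) the members' log2 values lay between -0.10 and 0.21 and between -0.07 and 0.06. The defeat by housing interaction (0.0%, 6.47% and 1.68% of genes) and the SUS-RES by housing interaction (0.0%, 4.84% and 2.29%) also gave 0 members. In the test of any difference among the 6 groups, 0 members passed the adjusted p (0.35% of genes), and Hapln4 (adjusted p = 0.23) and Ptprz1 (adjusted p = 0.39) passed the unadjusted p (11.1% of genes). In the 14 contrasts, limma-voom without sample weights called 0 members at an adjusted p of 0.05, and DESeq2 called 1, Hapln4 by housing.

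**Figure D3:**
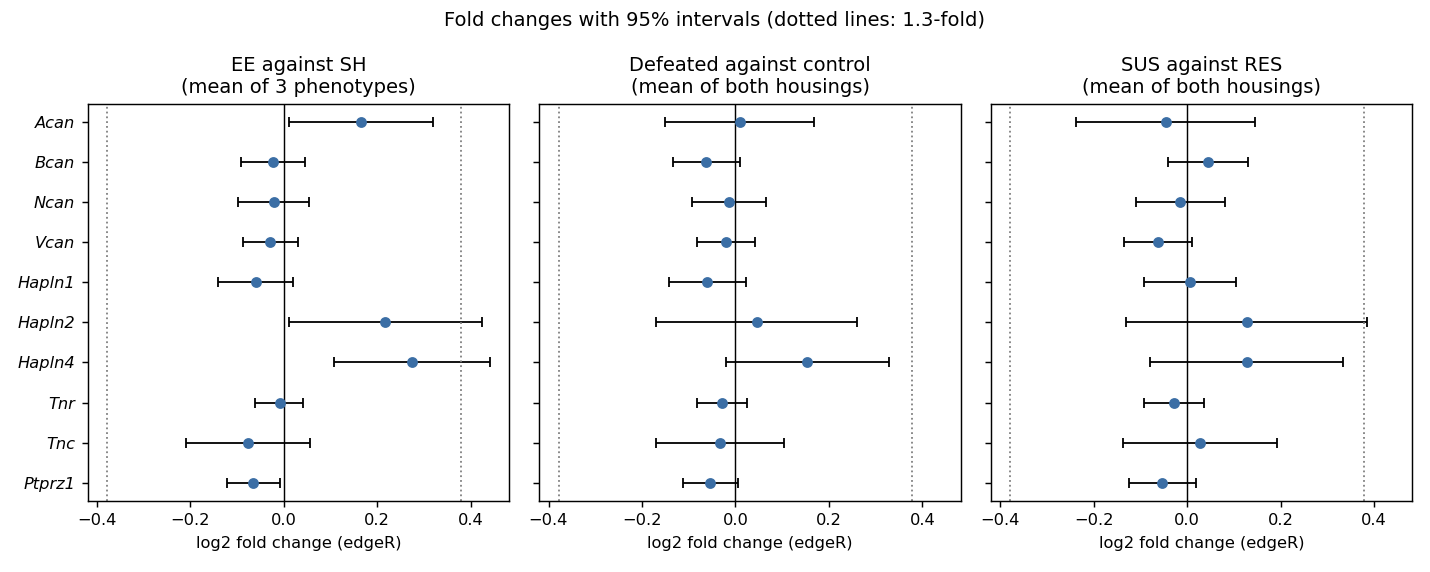
Log2 fold change of each of the 10 genes (points) with its 95% interval (whiskers) for EE against SH, defeated against control and SUS against RES mice, from the edgeR model of 54 mice, with dotted lines at a 1.3-fold difference. The interval of Hapln4 by housing, at a fold of 1.08 to 1.36, lies farthest from 0, and no member passed an adjusted p of 0.05.

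Among mice of the same group, the members did not vary as 1 block. Pearson's r of log2 CPM with group means removed was computed for all 45 pairs over 54 mice, with permutation within groups, and 16 pairs passed an adjusted p of 0.05, 13 of them positive and 3 negative. The libraries share dissection and sequencing, and these are correlations of levels in tissue, not in cells.

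Brevican and neurocan, the abundant lecticans, varied together (r = 0.71, rho = 0.71, permutation adjusted p = 0.000113, 0.67 without the 2 mice with the most extreme Bcan). Their r was 0.57 in SH and 0.80 in EE mice. Ncan also varied with Tnr (r = 0.60, rho = 0.59) and with Acan (r = 0.52, rho = 0.55), and Acan with Bcan (r = 0.41, rho = 0.44). Vcan and Hapln1, neighbours on chromosome 13, varied together (r = 0.64, rho = 0.57, permutation adjusted p = 0.000113, 0.57 without the 2 most extreme mice, 0.72 in SH and 0.59 in EE). The other neighbouring pairs did not, with r = 0.00 for Bcan and Hapln2 (permutation p = 0.976) and r = 0.06 for Ncan and Hapln4 (permutation p = 0.722), and Acan and Hapln3 had r = -0.03 (permutation p = 0.847). Ptprz1 went with Vcan (r = 0.54, rho = 0.49) and Tnc (r = 0.48, rho = 0.52). Tnc also went with Bcan (r = 0.46, rho = 0.57) and Hapln1 (r = 0.45, rho = 0.46). Hapln1 went with Ptprz1 (r = 0.36, rho = 0.38), at r = 0.628 in SH and r = 0.164 in EE. Acan went with Tnr (r = 0.34, rho = 0.35), at r = 0.565 in SH and r = 0.126 in EE.

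The strongest pair was Hapln2 and Hapln4 (r = 0.74, rho = 0.71, permutation adjusted p = 0.000113, 0.71 without the 2 most extreme mice, 0.71 in SH and 0.77 in EE). The unadjusted p of this pair, 1e-05, is the smallest that 100000 permutations can give. The 3 negative pairs all held 1 of these 2 link proteins, namely Hapln2 with Ptprz1 (r = -0.40, rho = -0.47), Hapln4 with Ptprz1 (r = -0.39, rho = -0.42) and Hapln4 with Tnc (r = -0.35, rho = -0.36). The last rested on SH mice, at r = -0.70 in SH and r = 0.01 in EE. Acan and Hapln4 passed by r (0.34, adjusted p = 0.0427) and not by rho (0.28, adjusted p = 0.0999), and had r = 0.21 without the 2 most extreme Acan mice.

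**Figure D4:**
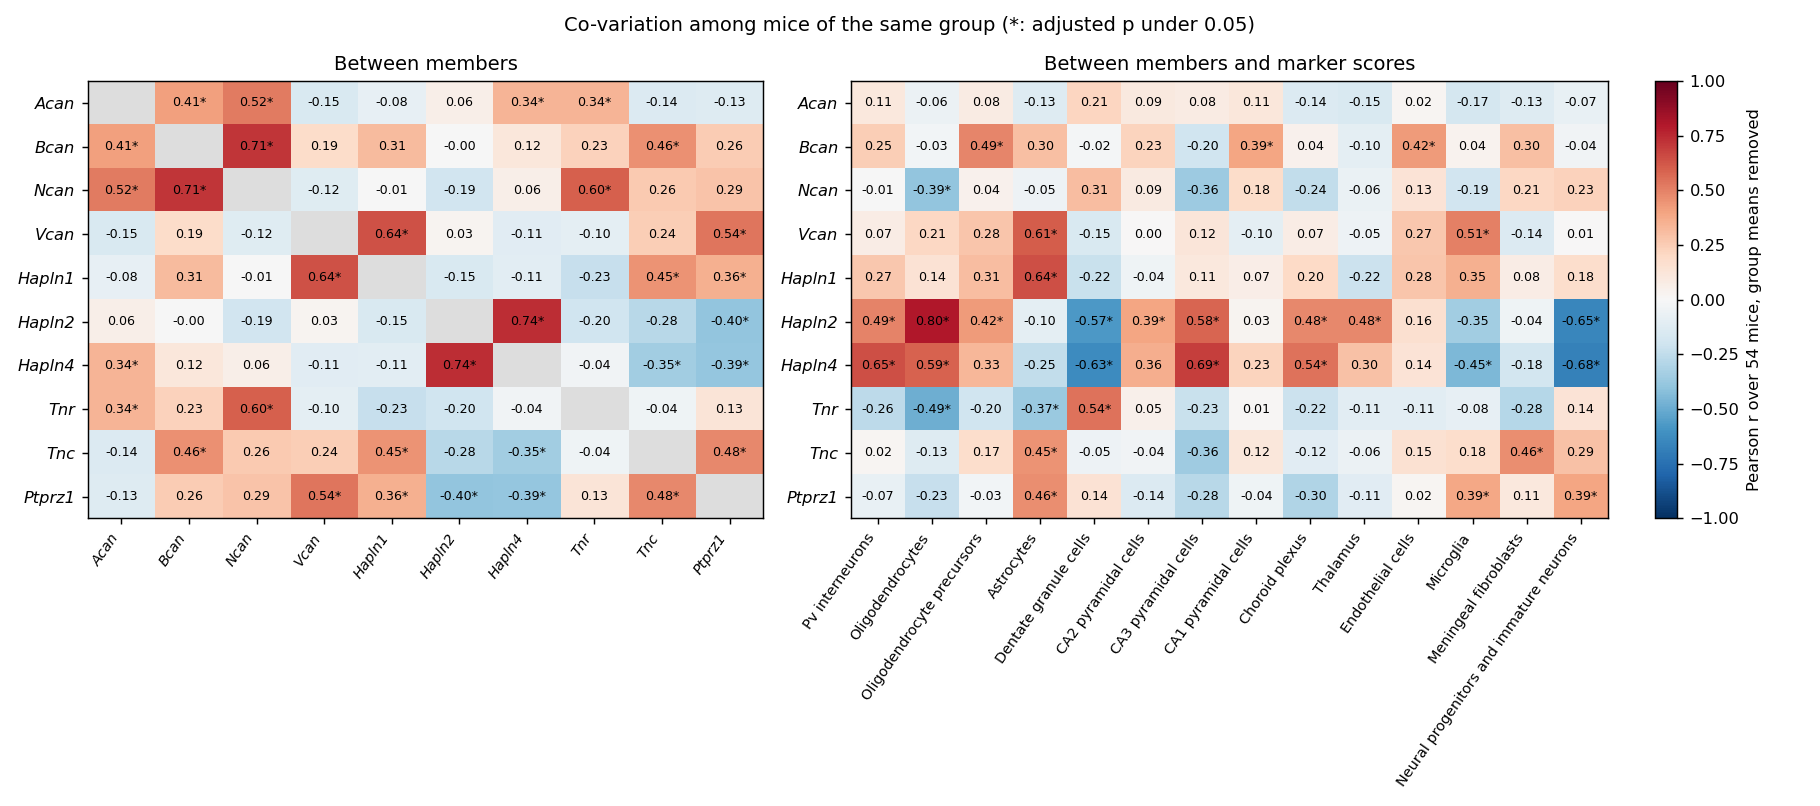
Pearson's r over 54 mice with group means removed, between the 10 genes (left) and between each gene and the mean score of 14 cell type marker lists (right), with red for positive and blue for negative values and an asterisk for an adjusted permutation p under 0.05. Hapln2 and Hapln4 have the largest values of the 10 genes for oligodendrocytes (0.80 and 0.59) and the lowest for dentate granule cells (-0.57 and -0.63).

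Scores of 14 cell type marker lists were set against the members in the same way, and 31 of 140 relations passed an adjusted p of 0.05. Hapln2 was closest to the oligodendrocyte score (r = 0.80, rho = 0.77, permutation adjusted p = 0.000175, 0.76 without the 2 most extreme mice, 0.83 in SH and 0.78 in EE). Hapln4 was closest to the CA3 pyramidal cell score (r = 0.69, rho = 0.62, permutation adjusted p = 0.000175, 0.68 in SH and 0.69 in EE) and to the parvalbumin interneuron score (r = 0.65, rho = 0.62), and it went with oligodendrocytes at r = 0.59. The CA3 and parvalbumin lists include genes that other neurons also express, so neither score stands for its named cell type alone. The marker genes nearest to Hapln4 were Grik4 of the CA3 list (0.764), Slc32a1 of the parvalbumin list and Sox10 of the oligodendrocyte precursor list (0.655 each) and the myelin gene Mag (0.648), and the one nearest to Hapln2 was the myelin gene Mobp (0.84). Both link proteins were lower where dentate granule cell markers were higher, with r = -0.57 for Hapln2 and r = -0.63 for Hapln4, and lower with markers of progenitors and immature neurons, with r = -0.65 and r = -0.68. They were also higher with the choroid plexus score (r = 0.48 and r = 0.54). Hapln2 was higher with the scores of the thalamus (r = 0.48), parvalbumin interneurons (r = 0.49), CA3 pyramidal cells (r = 0.58) and oligodendrocyte precursors (r = 0.42). With the CA2 pyramidal cell score Hapln2 passed by r (0.39) and not by rho (0.31, permutation adjusted p = 0.109). Hapln4 was lower with microglia (r = -0.45). What share of the differences between groups in Hapln2 and Hapln4 goes with these markers was not tested beyond the covariates.

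Hapln1 (r = 0.64, rho = 0.53), Vcan (r = 0.61, rho = 0.58), Ptprz1 (r = 0.46, rho = 0.43) and Tnc (r = 0.45, rho = 0.43) went with the astrocyte score, each past the adjusted permutation p. Other lists passed with these genes as well. Tnc went with meningeal fibroblasts (r = 0.46, rho = 0.43), Vcan with microglia (r = 0.51, rho = 0.59), and Ptprz1 with microglia (r = 0.39, rho = 0.46) and progenitors and immature neurons (r = 0.39, rho = 0.45). Bcan went with the score of oligodendrocyte precursors (r = 0.49, rho = 0.44, permutation adjusted p = 0.00728), and also with endothelial cells (r = 0.42, rho = 0.47, permutation adjusted p = 0.0318) and CA1 pyramidal cells (r = 0.39, rho = 0.31, permutation adjusted p = 0.0418). The relation of Bcan with CA1 pyramidal cells did not pass by rho (permutation adjusted p = 0.112). The astrocyte score did not pass with Bcan (r = 0.30, rho = 0.30, permutation adjusted p = 0.145). The marker gene nearest to Bcan was nevertheless the astrocyte gene Slc1a2 (0.621), above Matn4 of the precursor list (0.519). Ncan was lower with oligodendrocytes (r = -0.39, rho = -0.44). Tnr was the only member higher with the dentate granule cell score past the adjusted p (r = 0.54, rho = 0.47, permutation adjusted p = 0.00187), and was lower with oligodendrocytes (r = -0.49) and astrocytes (r = -0.37). The relation of Tnr with astrocytes did not pass by rho (-0.31, permutation adjusted p = 0.0957). Acan passed with none of the 14 lists. Its r was 0.11 with the parvalbumin interneuron score (permutation adjusted p = 0.643) and 0.09 with the CA2 pyramidal cell score (permutation adjusted p = 0.697), at a depth of 90.4 read pairs of Acan per mouse. Aggrecan nets are best known around these cell types, but the parvalbumin score includes genes that GABA neurons share at large.

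**Figure D5:**
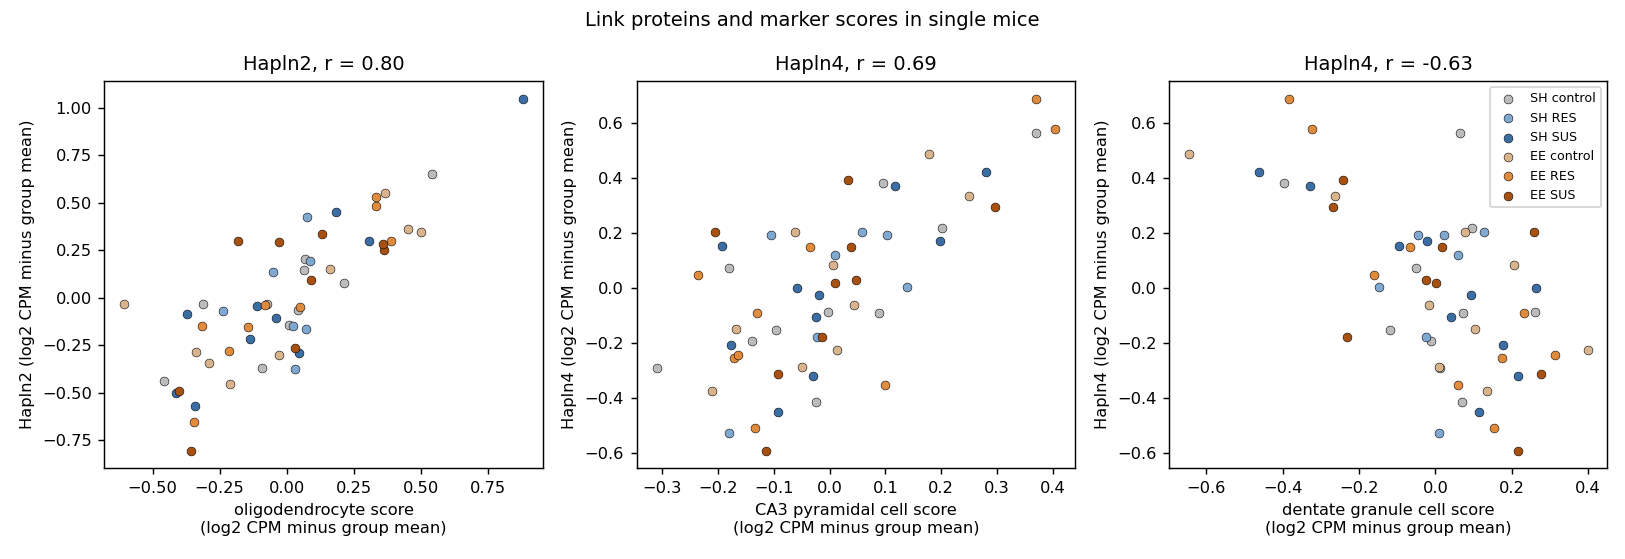
Hapln2 against the oligodendrocyte score, and Hapln4 against the CA3 pyramidal cell and the dentate granule cell score, in 54 mice colored by group, with both axes in log2 CPM minus the group mean. The points rise together in the first 2 plots (r = 0.80 and 0.69) and run opposite in the last (r = -0.63).

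The genes whose levels followed each member most closely, of the 18283 tested, are given as a description by r over the 54 mice. Hapln4 was followed by Rap1gds1 (r = 0.91) and Cadm3 (0.91), a cell adhesion molecule. Hapln2 was followed by Plekhh1 (0.87), Scn4b (0.87), a sodium channel subunit, and Bcas1 (0.85), known from oligodendrocytes that are forming myelin. Igdcc4 was first for Ncan (0.87) and the third for Bcan (0.81), whose first was Plxnb1 (0.85), a semaphorin receptor. Tnr was followed by Cacna1e (0.85), a calcium channel subunit. Tnc was followed by Slc7a11 (0.77), Ptn (0.69), a ligand of Ptprz1, and Egfr (0.65). Hapln1 was followed by Gpm6b (0.79), Gng12 (0.70) and Gja1 (0.69), the astrocyte gap junction protein. Ptprz1 was followed by Ddah1 (0.69), Ndnf (0.68) and Aqp4 (0.67), the astrocyte water channel. Acan was followed by Ccdc9 (0.73), Chrm1 (0.73), a muscarinic receptor, and Dcaf5 (0.72). Vcan had the loosest followers, with Zfp229 (0.66), Zeb1 (0.66) and Hapln1 (0.64).

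The enzymes, proteases and receptors that act on this matrix were taken from 4 lists of 72 genes, of which 69 were tested. By housing, 4 of them passed an adjusted p of 0.05, beside 2.42% of all genes, and none did in any other comparison of the edgeR model. Adamts4, a protease that cleaves lecticans, rose from 7.93 ± 1.6 CPM in SH (SD, n = 27) to 9.44 ± 1.94 CPM in EE (log2 difference 0.28 ± 0.07 SE, adjusted p = 0.0278). Itga9, an integrin subunit that binds tenascin-C, rose from 5.59 ± 0.558 to 6.30 ± 0.848 CPM (0.17 ± 0.05, adjusted p = 0.0417). Chst15, a sulfotransferase of chondroitin sulfate, fell from 63.0 ± 6.93 to 56.7 ± 6.63 CPM (-0.16 ± 0.04, adjusted p = 0.0422), and Csgalnact2, which starts and extends chondroitin chains, fell from 23.9 ± 1.56 to 22.5 ± 1.28 CPM (-0.09 ± 0.02, adjusted p = 0.0349). By list, 0 of 23 synthesis genes rose and 2 fell, 1 of 16 proteases and inhibitors rose and 0 fell, 1 of 14 receptors rose and 0 fell, and 0 of 16 other partners passed, where Cspg5 (log2 difference -0.06, adjusted p = 0.317) and Sparc (0.07, adjusted p = 0.396) had the smallest p. The list medians of the log2 difference lay between 0.00 and 0.03, close to 0.00 over all genes. With the oligodendrocyte score as a covariate 0 of the 4 lists' genes passed, in a fit in which 74 of all 18283 genes passed. Leaving out 1 mouse brought the count of 4 down to 1 (without SH RES 6 or EE RES 8) or to 2 (without SH control 1, 4 or 7, SH RES 1, 2 or 7, SH SUS 8, EE control 4, 5 or 9, EE RES 3, or EE SUS 2, 3, 4 or 6). Calls over all genes fell as well, from 442 with all mice to 300 without SH RES 6 and 254 without EE RES 8.

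By the study criterion, Adamts4 (log2 difference 0.45 by limma, unadjusted p = 0.00256) and Plxna1 (0.49, unadjusted p = 0.0021), a coreceptor of Semaphorin 3A, met it in EE against SH RES mice. Chst3, a chondroitin 6-O-sulfotransferase (0.43, unadjusted p = 0.000365), and Has2, a hyaluronan synthase (0.43, unadjusted p = 0.0331), met it in EE against SH SUS mice. Has2 also met it in EE SUS against EE RES mice (0.48). Both Chst3 and Has2 met it in the SUS-RES by housing interaction (0.46 and 0.80), with Has2 at a mean of only 0.592 CPM in SH. Chst14 met it in EE SUS against EE control (0.38) and Adamts8 in the defeat by housing interaction (0.47). In edgeR none of these passed an adjusted p of 0.05 in the comparison given, with the smallest at 0.0782 for Adamts4 in RES mice. Of all genes tested, 3.24% met the study criterion in EE against SH RES mice and 1.56% in EE against SH SUS mice. The share was 1.1% in EE SUS against EE RES and 1.94% in EE SUS against EE control mice. It was 2.29% in the SUS-RES by housing and 1.68% in the defeat by housing interaction. No list was tested as a set.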

How the data were processed

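The authors aligned the reads of stranded total RNA libraries to mouse genome mm10 (GRCm38) with STAR and deposited the raw count of each gene, in read pairs. Picard is also named in the submitters' processing notes. Although featureCounts is the counter in the methods, the files are laid out as STAR writes them, and the reverse-strand column was used. Summary rows (unmapped, 13.9% to 19.9% of read pairs; multimapping, 8.7% to 12.1%; unassigned; ambiguous) were left out. Mice were grouped by their labels, and EE control mouse 9, sequenced in 2 runs, was entered as their sum. Names and positions came from GENCODE for GRCm38, and 44585 identifiers matched.

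Counts were normalized by TMM and filtered with filterByExpr in edgeR 4.0.16 (R 4.3.3). All 54 mice entered 1 model with a mean per group, tested by quasi-likelihood with Benjamini-Hochberg adjustment over 18283 genes. The study criterion was applied with limma 3.58.1 (voom). DESeq2 1.42.0 was an alternative. Correlations used log2 CPM with a prior count of 2 and two-sided permutation with 100000 resamples within groups. The p-values were adjusted over 45 pairs and 140 marker relations separately. Further software was Python 3.11.15 with SciPy 1.17.1, pandas 2.3.3, NumPy 2.4.6 and matplotlib 3.10.9. The fit was tested on simulated data, with 200 genes changed between EE and SH mice by more than any member differed here. That test does not show how well smaller differences would be found.

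The members and lists were chosen with earlier results of these data known. The text names all 10 members, the genes of 4 matrix lists past either threshold (up to 6 per list and comparison, or the 2 with the smallest p, given here for housing), the marker genes nearest to a member, and the 3 genes most like each member, of which 1 is not reported here. Alternatives were RLE size factors, no filter or 1 CPM in 7 mice, unstranded counts, limma with and without sample weights, DESeq2, the groups compared alone, the replicate number as a block, marker scores as covariates, the first run alone, each mouse left out and, chosen after seeing the data, the 6 mice with high choroid plexus genes left out.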

Additional observations from a re-analysis of the deposited data

Results flagged for a closer look

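In 6 of 60 combinations of gene and group, 1 mouse lay farther from the others than Dixon's test allows, where chance gives about 1 in 20. All 6 were SH mice and all were the highest of their group. SH control mouse 10 stood apart in Acan (6.18 CPM, next 4.12) and in Hapln2 (7.98 CPM, next 5.83), and it was also the lowest of all mice in Tnc. SH SUS mouse 3 stood apart in Hapln2 (9.95 CPM, next 6.56), SH SUS mouse 9 in Vcan (44.8 CPM, next 37.95), SH SUS mouse 2 in Tnr (233 CPM, next 208) and SH RES mouse 1 in Hapln1 (37.7 CPM, next 34.4). Leaving out SH control mouse 10 or SH SUS mouse 3 put Hapln4 by housing past the threshold, at an adjusted p of 0.0313 and 0.0343 in edgeR.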

How the results depend on the processing

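Of 1790 alternative values of the 140 member differences, 2 had an adjusted p under 0.05, 81 changed sign, none with an adjusted p under 0.05 on either side, and the other 1707 kept their direction and their side of the threshold. The sign changes included differences of Hapln2 that were not small, at 0.25 in EE SUS vs EE control, 0.27 in EE vs SH SUS, 0.22 by housing, 0.19 in SH SUS vs SH RES and -0.22 in SH RES vs SH control. The count of members called by housing went from 0 to 1, Hapln4, with limma with sample weights and with DESeq2, and ranged from 0 to 1 when each mouse was left out. The count of matrix list genes called by housing went from 4 to 1 without the low-count filter and to 0 with the oligodendrocyte score, and ranged from 1 to 5 when each mouse was left out. In EE against SH RES mice it went from 0 to 1 with DESeq2, and ranged from 0 to 1 when each mouse was left out, with 1 only without EE RES 9. Calls over all genes in EE against SH RES mice numbered 50, and 245 with DESeq2. Over all genes, calls by housing numbered 442, and 242 without the filter, 74 with the oligodendrocyte score, 680 with DESeq2 and 741 with sample weights. The cause of these changes was not tested. Replicate numbers showed no clear pairing of mice. Same-numbered mice of different groups had a median correlation of 0.03 (-0.26 to 0.44), beside -0.004 (-0.355 to 0.492) for different numbers. Of 54 mice, 9 correlated best with their own number, and the number expected by chance was not computed. With the replicate block, calls over all genes numbered 581 by housing and 228 in place of 50 in EE against SH RES mice, the count of members stayed at 0, and Hapln4 by housing had an adjusted p of 0.0648. With DESeq2, log2 differences that changed sign came to Tnc 0.001 (EE SUS vs EE RES). With the filter of 1 CPM in 7 mice, log2 differences that changed sign came to Tnc 0.001 (EE SUS vs EE RES). With limma-voom, log2 differences that changed sign came to Acan -0.004 (defeat), Bcan -0.002 (EE vs SH RES) and Tnc 0.003 (SH SUS vs SH control). With limma and sample weights, log2 differences that changed sign came to Acan 0.015 (SH RES vs SH control), Bcan -0.012 (EE vs SH RES), Hapln1 0.011 (EE vs SH control), Hapln1 0.027 (EE SUS vs EE RES), Hapln1 0.001 (SUS-RES by housing), Hapln2 0.022 (SUS-RES by housing), Tnr -0.007 (SH SUS vs SH RES) and Vcan 0.003 (SUS-RES by housing). Without the low-count filter, log2 differences that changed sign came to Bcan 0.0 (EE vs SH RES). With the replicate block, log2 differences that changed sign came to Acan 0.013 (SH RES vs SH control), Bcan 0.0 (EE vs SH RES), Hapln2 0.017 (EE vs SH control), Tnr -0.009 (SH SUS vs SH RES) and Vcan 0.009 (SUS-RES by housing). With unstranded counts, log2 differences that changed sign came to Tnc 0.004 (EE SUS vs EE RES), Tnr 0.001 (EE vs SH RES) and Vcan -0.001 (EE vs SH control). With the oligodendrocyte score, log2 differences that changed sign came to Hapln1 -0.003 (SUS vs RES), Hapln2 -0.019 (housing), Hapln2 -0.02 (EE vs SH SUS), Hapln2 0.013 (SH SUS vs SH control), Hapln2 0.031 (SH RES vs SH control), Hapln2 -0.047 (SUS vs RES), Hapln2 -0.018 (SH SUS vs SH RES), Hapln2 -0.075 (EE SUS vs EE RES), Hapln4 0.066 (SH RES vs SH control), Hapln4 -0.03 (EE SUS vs EE RES), Ncan 0.024 (housing), Ncan 0.023 (EE vs SH RES), Ncan 0.038 (EE vs SH SUS), Ncan -0.027 (SH RES vs SH control), Ncan 0.003 (EE SUS vs EE control), Ncan 0.012 (SUS vs RES), Ncan 0.004 (SH SUS vs SH RES), Ncan 0.019 (EE SUS vs EE RES), Ncan 0.018 (defeat by housing), Ptprz1 0.005 (EE SUS vs EE RES), Tnc 0.001 (EE SUS vs EE control), Tnc 0.014 (EE SUS vs EE RES), Tnr 0.026 (housing), Tnr 0.046 (EE vs SH RES), Tnr -0.023 (SH RES vs SH control) and Vcan -0.001 (EE vs SH control). With the choroid plexus and thalamus scores, log2 differences that changed sign came to Acan 0.001 (SUS vs RES), Acan 0.033 (EE SUS vs EE RES), Hapln1 0.011 (EE SUS vs EE RES), Hapln2 0.066 (EE vs SH control), Hapln2 -0.082 (defeat), Hapln2 -0.106 (EE SUS vs EE control), Hapln2 -0.075 (SUS vs RES), Hapln2 -0.161 (EE SUS vs EE RES), Hapln4 -0.074 (EE SUS vs EE RES), Ncan -0.004 (EE vs SH control), Ncan -0.002 (SH RES vs SH control), Ncan 0.006 (SUS vs RES), Ncan 0.013 (EE SUS vs EE RES), Ptprz1 0.013 (EE SUS vs EE RES), Tnc 0.015 (EE SUS vs EE control), Tnc 0.024 (EE SUS vs EE RES) and Tnr 0.005 (EE vs SH RES). Without the 6 choroid plexus mice, log2 differences that changed sign came to Acan 0.014 (SUS vs RES), Acan 0.047 (EE SUS vs EE RES), Bcan -0.029 (EE vs SH RES), Hapln1 0.007 (EE SUS vs EE RES), Hapln2 -0.005 (defeat), Hapln2 -0.055 (SH SUS vs SH RES), Hapln2 0.148 (SUS-RES by housing), Ncan 0.022 (SH SUS vs SH control), Ncan 0.01 (SUS vs RES), Ncan 0.006 (SH SUS vs SH RES), Ncan 0.014 (EE SUS vs EE RES), Ptprz1 0.013 (EE SUS vs EE RES), Tnc 0.031 (SH SUS vs SH control), Tnc 0.044 (EE SUS vs EE RES), Tnc -0.022 (defeat by housing) and Vcan 0.012 (SUS-RES by housing). Acan and Hapln2 had the fewest read pairs, and the spread between mice was widest for Hapln2 and Hapln4.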
